A study of Mus musculus with 6 samples.

Results

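Mesothelial nuclei were taken from single-nucleus RNA profiles of mouse adrenal glands as nuclei in which at least 2 of 7 mesothelial genes (Upk3b, Msln, Muc16, Lrrn4, Upk1b, Krt19 and Bnc1) had a unique molecular identifier (UMI, a tag that counts captured RNA molecules). The rule was met by 111 of 21724 deposited barcodes, and 109 of the 21035 nuclei left after low-quality barcodes and doublets were removed, or 0.518%. The study compared wild-type (WT) with knockout (KO) mice. The gene knocked out, Tmem127, encodes a membrane protein of endosomes and lysosomes, and its human counterpart is a susceptibility gene for tumours of the adrenal medulla. Each library came from 1 pair of frozen whole adrenals of female C57BL/6 J mice aged 10 to 11 months, whose nuclei were released in a Tween buffer with salts and Tris, stained with DAPI, sorted and sequenced by a droplet 3' protocol. The labels put 2 libraries in KO and 3 in WT. The remaining library is titled WT but has KO in its genotype field, and it was kept apart as unassigned. The deleted part of Tmem127, and whether the knockout is in every cell, are not given in the labels. Nothing there says whether glands of different libraries were handled together.

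The mesothelium is the flat epithelial sheet that lines body cavities and covers the organs in them. Its cells join epithelial features (keratins, junctions, a mucin-coated free surface) with mesenchymal ones, secrete a lubricating fluid and rest on a basement membrane. Beneath it the adrenal has a fibrous capsule, and in the embryo the surface epithelium of the body cavity, marked by the transcription factor Wt1, gives rise to the adrenal cortex.

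Of the 109 nuclei, 51 were in the unassigned library, or 46.8% of them, so levels pooled over the 109 lean on that library; the level over the other 58 nuclei is given where it differs by over 1.5 times. KO replicates 1 and 2 held 3 and 25, and WT replicates 1, 2 and 3 held 4, 10 and 16. The RNA behind them was 15871, 41838, 26605, 11070 and 66455 UMIs in that order, and 209706 in the unassigned library. Their median depth was 2556 UMIs, against 3647 in all other nuclei, and 14 had fewer than 1000. Depth differed between libraries, from a median of 1289 UMIs per barcode in KO replicate 2 to 7675 in WT replicate 1. Cell Ranger versions also differed, 4.0.0 for KO replicate 1 and WT replicate 1 and 3.1.0 for the others. Of 21646 barcode sequences, 72 occurred in more than 1 library, and no mesothelial nucleus shared its barcode with a mesothelial nucleus of another library.

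When all nuclei were clustered without genotype, 105 of the 109 fell in 1 cluster of 132 nuclei. The other 4 lay elsewhere and are named here because some carried much of a library's RNA. In KO replicate 1 a nucleus with Muc16 and Lrrn4 held 10727 UMIs, 67.6% of that library's mesothelial RNA. It lay in a cluster led by Dab1, Abcb1b and Akr1b7, had 168 UMIs over 7 of 8 steroid synthesis genes of the cortex, and had no Wt1. Levels in KO replicate 1 are therefore also given within the cluster, from its 2 other nuclei. In WT replicate 3 a nucleus with 5 rule genes held 17198 UMIs, 25.9% of that library's total. It had 86 UMIs over 6 of 8 chromaffin genes (Th, Dbh, Pnmt, Chga, Chgb and Slc18a1) beside 29 UMIs over 8 mesothelial genes outside the rule. Its doublet score ranked 137 in that library, where the top 106 were removed. Another nucleus (WT replicate 3, 7046 UMIs) lay in a cluster led by Rspo3 with 25 UMIs of capsule genes, and the last (KO replicate 2, 1157 UMIs) in a cluster led by Vsnl1. The 27 nuclei of the mesothelial cluster that missed the rule were shallow, with a median of 1068 UMIs; 19 had 1 rule gene, and 15 had Wt1.

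The 7 rule genes are described without a test, since they chose the nuclei. Muc16, a large membrane mucin of serous surfaces, was detected in 96 of 109 nuclei. Upk1b and Upk3b, uroplakins known from the bladder lining, were detected in 72 and 54. Msln encodes mesothelin, a surface protein that binds Muc16, and was found in 47. Bnc1, a zinc finger factor, was found in 38, the keratin gene Krt19 in 27, and Lrrn4, a leucine-rich repeat membrane protein, in 21. No nucleus had all 7. The most frequent pair was Muc16 with Upk1b, in 61 nuclei, followed by Muc16 with Upk3b in 49 and Muc16 with Msln in 42. Muc16 lies on chromosome 9 (18495455 to 18674530, minus strand, mm10), Upk3b on chromosome 5 (136038496 to 136046487, plus strand) and Msln on chromosome 17 (25748613 to 25754378, minus strand).

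Summed over the mesothelial nuclei of a library, Muc16 stood at 826 and 1414 counts per 1000000 (CPM) in KO replicates 1 and 2 and at 569, 1722 and 1855 in WT replicates 1 to 3. The unassigned library had 2007. Within the cluster, KO replicate 1 was at 2347 and WT replicate 3 at 2683. The KO values fell inside the WT range both ways. Msln was at 0 in KO replicate 1 and 264 CPM in KO replicate 2, against 114, 544 and 241 in the WT libraries, and at 134 in the unassigned one. With 3 nuclei in KO replicate 1, a count of 0 allows up to 191 CPM there. In its 2 nuclei within the cluster 3 counts are 587 CPM, so a count of 0 does not place Msln below any WT level. Some loose RNA reaches every droplet, so the same genes were counted in the cluster with the highest level of the steroid enzyme gene Cyp11b1, which should lack them. Lrrn4 had a UMI in 34 of its 3243 nuclei, Muc16 in 32, Msln in 21, Upk1b in 4, Upk3b in 3, Bnc1 in 1 and Krt19 in none. The median depth there was 6922 UMIs. Of the 56 nuclei with Lrrn4 that missed the rule, 34 lay in that cluster. Whether its Lrrn4 UMIs are loose RNA was not tested. Msln was also present in 91 of 830 nuclei of the Rspo3 cluster, or 11.0%. After thinning to 1000 UMIs that was 39 of 711, against 16 of 95 mesothelial nuclei, so Msln alone separates these cells from Rspo3 nuclei less sharply than the other rule genes.

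More rule genes were detected in deeper nuclei. The shallowest 37 nuclei (541 to 1854 UMIs) had a median of 2 rule genes, the middle 36 had 3 and the deepest 36 (3431 to 25540 UMIs) had 4. At the threshold, 36 nuclei had exactly 2 rule genes and 435 had exactly 1. Wt1, which the rule did not use, was detected in 66.7% of the nuclei with exactly 2 and in 7.36% of those with exactly 1, while 4.86% of nuclei with none had it. The median depths of these sets were 1620, 5924 and 3613 UMIs, so the high share of Wt1 just inside the rule went with the lowest depth.

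**Figure D1:**
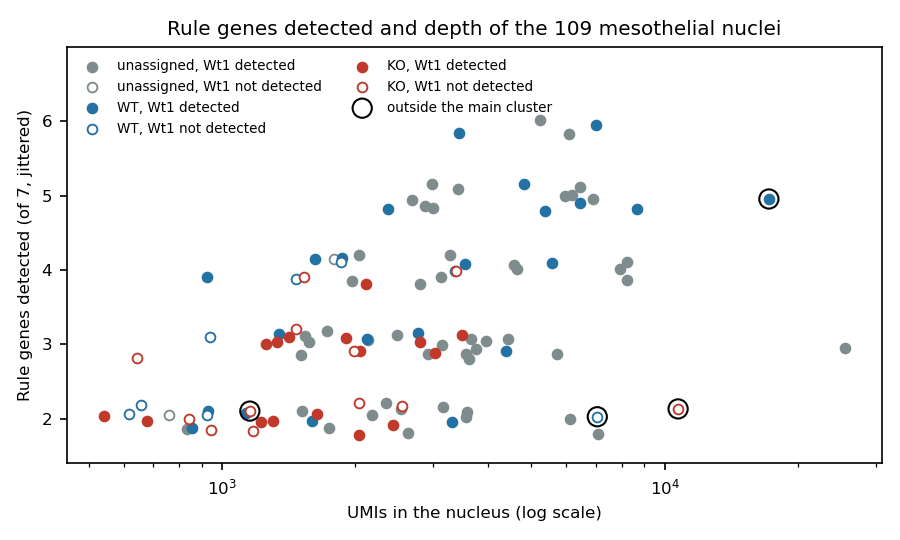
Rule genes detected in each of the 109 mesothelial nuclei (vertical axis, jittered) against its UMIs (horizontal axis, log scale), coloured by group, filled where Wt1 was detected and ringed where the nucleus lay outside the mesothelial cluster. Nuclei with 5 or 6 rule genes all had Wt1, and the ringed nuclei include those with 10727 and 17198 UMIs.

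The next list was chosen with earlier results of these data known and is no independent check of the label. It held 23 further mesothelial genes that the rule did not use. Of these, 11 were higher in the mesothelial nuclei than in all other nuclei in each of the 6 libraries and 0 were lower in each; over all 24660 genes measured, 1.4% were higher and 24% lower in each library. The large share of lower genes includes genes with no UMI in so few nuclei that had some in the other nuclei of each library. The 11 were Wt1, Gpm6a, Pkhd1l1, Igfbp5, Igfbp6, C3, Slpi, Efemp1, Aldh1a2, Ezr and Ildr2, and the count remained 11 without the 4 nuclei outside the cluster. The list's median difference was 4.54 on the log2 scale, against -0.15 over all genes. With every nucleus thinned to 1000 UMIs, 81 of 95 mesothelial nuclei (85.3%) had at least 3 of the 23 genes, and 111 of 18922 other nuclei (0.587%) did. By library the mesothelial counts were 2 of 3 and 16 of 20 in KO, 4 of 4, 3 of 3 and 13 of 16 in WT, and 43 of 49 in the unassigned library. Calb2, which encodes the mesothelioma marker calretinin, had no UMI in any of the 109. Other keratins were sparse: Krt7 was in 18 nuclei, Krt18 in 7 and Krt8 in 3. For the lists below the median difference over the pooled libraries is given in the same way, followed by the median with genes at no UMI set at the floor of 3 counts, which raises it. Without the unassigned library the median over all genes was -0.18.

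Wt1 was at 318 and 743 CPM (KO replicates 1 and 2), 1327, 725 and 679 (WT replicates 1 to 3) and 1601 (unassigned). Within the cluster, KO replicate 1 was at 978 CPM and WT replicate 3 at 1021. The 88 nuclei with Wt1 included 49 of the unassigned library, and the level over the other libraries was 769 CPM against 1239 over all. The mean difference from the other nuclei of the same library was 5.00 ± 1.37 on the log2(CPM + 1) scale (SD, n = 6 libraries), and 4.90 ± 1.50 (SD, n = 5) without the unassigned library. Wt1 lies on chromosome 2 (105126529 to 105173616, plus strand, mm10), and its antisense neighbour Wt1os runs the other way just upstream (105076538 to 105126510). Wt1os was found in 67 of the 109 nuclei at 645 CPM, and at 366 without the unassigned library. The 2 gene models do not overlap, but the sources used here do not state whether reads were counted by strand.

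The 20 genes with the largest mean difference, among genes found in at least 20% of the nuclei and higher in each library, were Pkhd1l1, Gm765, Pcnx2, Gpm6a, Adgrd1, Lrp2, Il16, Lvrn, Il17re, Gpr39, Zfp804b, Dpp4, Atp6v0a4, Adamtsl1, Igfbp6, Ablim3, Crip1, Megf6, C3 and Cobl. They came from 296 candidates and are a description of the chosen nuclei. The same 20 led without the unassigned library, and 19 of them without the 4 nuclei outside the cluster. Pkhd1l1, a large membrane protein related to the cystic kidney disease gene Pkhd1, was at 699 and 1462 CPM (KO replicates 1 and 2), 644, 1359 and 1629 (WT replicates 1 to 3) and 1649 (unassigned), against 1.71 in all other nuclei. It was found in 97 of the 109 nuclei and in 0 nuclei of the 3 stromal clusters described next. Gpm6a, a membrane glycoprotein known from neurons, was at 572 and 1894 CPM (KO replicates 1 and 2), 1289, 3081 and 2112 (WT replicates 1 to 3) and 1955 (unassigned). Other nuclei had 6.91. Within the cluster, Pkhd1l1 was at 2151 CPM in KO replicate 1 and 2469 in WT replicate 3, and Gpm6a at 1760 and 2968. Pkhd1l1 and Gpm6a differed from the other nuclei by 8.60 ± 0.49 and 7.51 ± 0.73 on the log2(CPM + 1) scale (SD, n = 6 libraries).

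Several leading genes encode proteins of the cell surface or of uptake and secretion. Lrp2 encodes megalin, the endocytic receptor best known from kidney tubules, and was in 39 nuclei at 63.5 and 695 CPM (KO replicates 1 and 2), 152, 90.6 and 106 (WT replicates 1 to 3) and 210 (unassigned). KO replicate 2 stood above the other libraries. The UMI of KO replicate 1 was in the nucleus outside the cluster, and WT replicate 3 had 166 CPM within it. The other 8 kidney tubule markers (Slc34a1, Umod, Slc12a1, Slc12a3, Aqp2, Pax8, Pax2 and Cdh16) had no UMI in the 109 nuclei. Dpp4 and Lvrn encode surface peptidases and were in 63 and 47 nuclei. Adgrd1, an adhesion receptor, was in 83 nuclei, and Gpr39, a zinc-sensing receptor, in 53. Cobl and Ablim3, which act on actin filaments, were in 74 and 46. The chloride channel gene Cftr, outside the leading set, was in 26 nuclei at 121 CPM against 0.188 in other nuclei, with no UMI in KO replicate 1 or WT replicate 2.

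**Figure D2:**
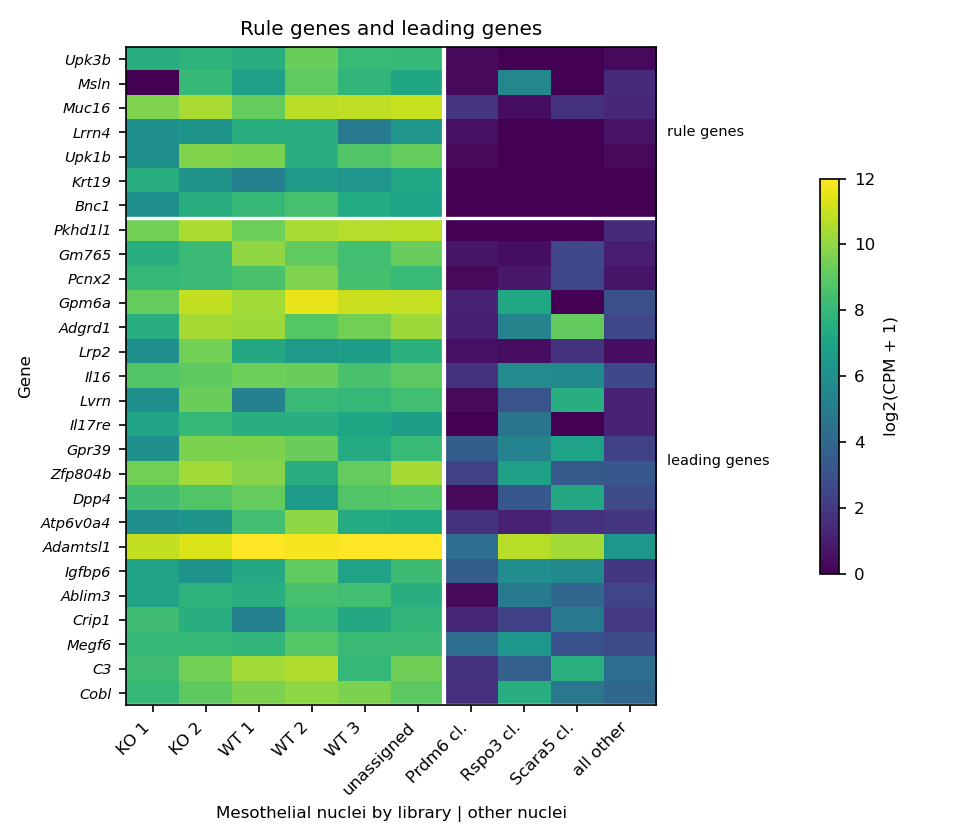
Levels of the 7 rule genes and the 20 leading genes as log2(CPM + 1) (colour), in mesothelial nuclei of each library (left 6 columns) and in the Prdm6, Rspo3 and Scara5 stromal clusters and all other nuclei (right 4 columns). The rule genes are near 0 in the right columns except Msln in the Rspo3 cluster (46.1 CPM), and Adgrd1 is also present in the Scara5 cluster (562 CPM).

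The nearest cells for comparison were 3 stromal clusters, taken as those with the highest level of Prdm6 (1361 nuclei), Rspo3 (830 nuclei, the factor made by the capsule) and Scara5 (150 nuclei). Higher in mesothelial nuclei in each of the 6 libraries were 1.72% of genes against the Prdm6 cluster, 1.73% against Rspo3 and 1.8% against Scara5; lower were 10.2%, 6.5% and 3.27%. Wt1 itself was not particular to the mesothelial nuclei. The Prdm6 cluster had it at 370 CPM and the Scara5 cluster at 213, and after thinning it was found in 65 of 95 mesothelial nuclei, in 28.1% of Prdm6, 18.7% of Scara5 and 3.52% of Rspo3 nuclei. Against Prdm6 nuclei Wt1 was higher in 5 of the 6 libraries. At least 3 of the 23 mesothelial genes were found, at 1000 UMIs, in 1.41% of Prdm6, 6.05% of Rspo3 and 7.32% of Scara5 nuclei.

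Fibroblast genes were mixed in the mesothelial nuclei. Dcn, the matrix proteoglycan decorin, was at 63.5 and 599 CPM (KO replicates 1 and 2), 872, 634 and 996 (WT replicates 1 to 3) and 1008 (unassigned). Within the cluster, KO replicate 1 was at 196 and WT replicate 3 at 1543. Set against the same library's Prdm6 nuclei (29.4 CPM over all libraries), Dcn was higher in 6 of 6. Against the same library's Scara5 nuclei it was lower in 5 of 6. Over all libraries Scara5 nuclei had 679 CPM, below the mesothelial levels of WT replicates 1 and 3 and the unassigned library. The comparison with Scara5 therefore has no firm sign. Dcn was in 70 of the 109 nuclei, and Col3a1, a fibrillar collagen, in 65. Pdgfra, the growth factor receptor that marks fibroblasts, was in 9 nuclei at 24.3 CPM (49.6 without the unassigned library), against 788 in Prdm6 and 535 in Scara5 nuclei and lower in each library than in both. Pi16, a marker of adventitial fibroblasts, was in 1 nucleus against 447 CPM in Scara5. Dpt had no UMI, which puts it at least 20.7-fold lower than in Scara5 nuclei (floor of 3 counts over the 109 nuclei). Rspo3 was in 3 nuclei, 16 of its 18 UMIs in WT replicate 3. Within the cluster WT replicate 3 had 0 Rspo3 UMIs, and the unassigned library had 2. Of the 10 capsule and fibroblast markers, Dcn was higher and Lum and Dpt lower than in all other nuclei in each library. Over all genes 1.4% were higher and 24% lower in each. The summed level of the list was 1849 CPM, and 1964 in the 105 nuclei of the cluster, against 4204 in Rspo3 and 3294 in Scara5 nuclei. The list's median log2 difference was 1.05, and 2.42 with the floor; without the unassigned library it was 1.72 and 3.22.

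Among 22 surface and stromal transcription factors, Wt1 and Bnc2 were higher than in all other nuclei in each library. Lower in each were 6 (Meis2, Irx3, Irx5, Ebf1, Hoxb3 and Hoxb4), a share close to the 24% of all genes that were lower. Irx3 and Irx5 had no UMI. Bnc2, the relative of Bnc1, was in 98 nuclei at 2813 CPM, a level also reached in Prdm6 (2302) and Rspo3 nuclei (2723). Ebf1 was in 4 nuclei at 10.8 CPM, against 7174 in Scara5 and 1229 in Rspo3 nuclei. Gata4 was at 103 CPM against 614 in the Prdm6 cluster and was the lower of the pair in all 6 libraries. Osr1, a factor of early mesoderm and urogenital tissue, was in 28 nuclei at 135 CPM, against 0.439 in Prdm6, 0.762 in Rspo3 and 28.7 in Scara5 nuclei. It had no UMI in KO replicate 1 and was between 90.6 and 303 CPM in the other libraries. Nr5a1, the master factor of steroid cells, was in 11 nuclei at 72.9 CPM against 174 in other nuclei, and at 31.0 without the unassigned library. Within the cluster it had 1 UMI in WT replicate 1, 1 in WT replicate 3, 22 in the unassigned library and 0 in the others. The median log2 difference of the 22 factors was -0.08 and turned to 0.65 with the floor, so it has no firm sign.

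Of 30 basement membrane genes, 4 were higher (Lama4, Nid2, Col4a5 and Col4a6) in each library than in all other nuclei. Lower in each were 6 (Lama1, Lama2, Lama3, Lamb3, Frem1 and Itga6), no larger a share than the 24% of all genes that were lower. The median log2 difference of the list was 0.20 (0.32 with the floor). Lama2, the laminin chain of muscle and stroma, was at 127 and 47.9 CPM (KO replicates 1 and 2), 114, 90.6 and 226 (WT replicates 1 to 3) and 9.56 (unassigned). Within the cluster, KO replicate 1 was at 391 and WT replicate 3 had none. Prdm6, Rspo3 and Scara5 nuclei had 4875, 2066 and 1903, above every library of mesothelial nuclei. Lama1 had no UMI, at least 50.9-fold below the Prdm6 cluster (412 CPM; floor of 3 counts over the 109 nuclei). Lama4, another laminin chain, was in 63 nuclei at 543 CPM and was higher than in Prdm6 nuclei (38.6) in each library. Col4a6, a minor chain of collagen IV, was in 64 nuclei at 572 CPM against 21.2 in all other nuclei, a difference of 3.73 ± 1.34 on the log2(CPM + 1) scale (SD, n = 6 libraries).

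Junction and polarity genes gave 3 of 27 higher (Cdh11 and Afdn among them) and 5 lower (Cdh2, Ocln, Crb3, Dsc2 and Jup) in each library. The 5 are no larger a share than the 24% of all genes that were lower. Ocln, Crb3 and Dsc2 had no UMI. Cdh11, a cadherin of mesenchyme, was in 80 nuclei, at 254 and 1990 CPM (KO replicates 1 and 2), 910, 1087 and 739 (WT replicates 1 to 3) and 1434 (unassigned). Within the cluster, KO replicate 1 was at 782. The epithelial cadherin Cdh1 was in 2 nuclei, both in the unassigned library. Tjp1, the zonula occludens scaffold, was in 35 nuclei at 157 CPM and was lower than in Rspo3 nuclei (2101) in each library. Of 16 genes of the apical surface, Ezr was higher in each library; it encodes ezrin, which ties microvilli to actin, and was in 46 nuclei at 246 CPM against 9.61. Has1, a hyaluronan synthase, was in 11 nuclei and Has2 in none. The median log2 difference was 0.91 for the junction list (1.00 with the floor) and 0.96 for the apical list (3.04).

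Of 16 retinoid genes, the retinaldehyde dehydrogenases Aldh1a1 and Aldh1a2 were higher in each library and 6 were lower (Aldh1a3, Rbp4, Stra6, Rarb, Dhrs3 and Cyp26b1, of which Rarb and Dhrs3 had UMIs). Aldh1a1 was in 62 nuclei, at 127 and 839 CPM (KO replicates 1 and 2), 758, 816 and 181 (WT replicates 1 to 3) and 492 (unassigned). Within the cluster, KO replicate 1 was at 391 and WT replicate 3 at 285. Its level in the Prdm6 cluster was 614 CPM, so it did not set mesothelial nuclei apart from that stroma. Of 22 Wnt, hedgehog and BMP genes, Gli3 was higher in each library and Wnt4, Znrf3, Shh, Ihh, Hhip and Bmper lower. For both lists the shares over all genes were 1.4% higher and 24% lower in each library. Ptch1, the hedgehog receptor and a target of the pathway, was at 54.0 CPM, against 1706 in Prdm6 and 714 in Rspo3 nuclei, and lower than in both in each library. Rspo1, an activator of Wnt signalling, was in 41 nuclei at 170 CPM against 2.69 in all other nuclei, with no UMI in KO replicate 1. The median log2 difference changed sign with the floor in both lists, from -0.30 to 1.10 for the retinoid genes and from -0.31 to 0.08 for the others. Without the unassigned library the second list was at 0.01 before the floor.

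Complement and defence genes gave C3, C4b and Slpi higher in each library, of 25, and Ccl2, Cxcl1 and Cxcl12 lower, these 3 at no UMI. For this list and those that follow, the shares over all genes were 1.4% higher and 24% lower in each library. C3, the central complement component, was in 67 nuclei, at 318 and 695 CPM (KO replicates 1 and 2), 1289, 1540 and 256 (WT replicates 1 to 3) and 679 (unassigned); Prdm6, Rspo3 and Scara5 nuclei had 2.41, 11.8 and 196. It was higher than in each of the 3 in every library, and within the cluster KO replicate 1 was at 978 and WT replicate 3 at 404. Of 23 genes of mesenchymal transition and YAP activity, 0 were higher and Snai1, Snai2 and Zeb1 were lower. Of 16 immediate early and heat shock genes 0 were higher and Egr1, Ier2 and Hspa1a lower. Of 11 MAPK feedback genes 0 were higher and 5 lower (Dusp4, Spry1, Spred1, Etv1 and Etv5), and of 30 lysosome and autophagy genes 0 were higher and Ctsd and Lamtor2 lower, both at no UMI. The median log2 differences of these 5 lists, in the order given, were 1.22, 0.03, 0.87, -0.84 and -0.05. With the floor they were 1.84, 0.88, 1.39, 0.44 and -0.01, so the MAPK list changed sign. Without the unassigned library the first medians were 0.94, 0.29, 1.00, -0.71 and -0.30, and the last turned to 0.08 with the floor.

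**Figure D3:**
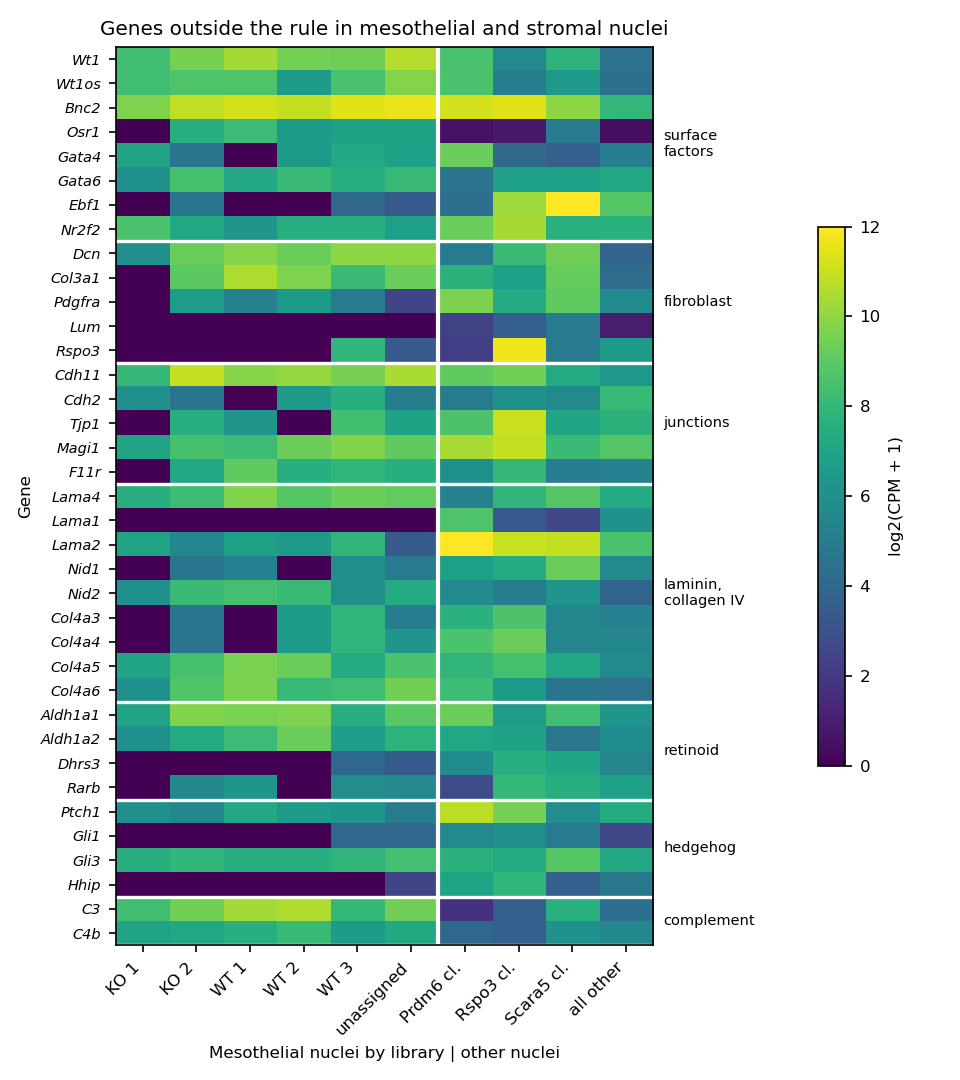
Levels of genes outside the rule as log2(CPM + 1) (colour), grouped by role, in mesothelial nuclei of each library (left 6 columns) and in the 3 stromal clusters and all other nuclei (right 4 columns). C3 and Cdh11 are present in all 6 mesothelial columns, Lama1 and Lum are at 0 in all of them, and Ebf1 and Lama2 are highest in stromal columns.

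Markers of other cells were counted in the same nuclei. The 8 cortical steroid genes summed to 2146 CPM against 5219 in all other nuclei, and 8 of 8 had a UMI. A nucleus of the unassigned library with 25540 UMIs held 47.0% of these UMIs and the KO replicate 1 nucleus described above 21.1%, while the median nucleus had 2. By library the list ranged from 575 to 11310 CPM, the highest in KO replicate 1, which had 1955 within the cluster. The 8 chromaffin genes summed to between 90.6 and 196 CPM except in WT replicate 3 (1358 CPM), where the 17198-UMI nucleus held 86 of 90 UMIs, and Slc18a2 was at 0. The 8 endothelial genes summed to 113 CPM against 1229 in other nuclei. The 4 globin genes summed to at most 227 CPM except in WT replicate 2 (1993 CPM), where 1 nucleus held 20 of 22 UMIs. No nucleus had a UMI of the cycling genes Mki67, Top2a, Cenpf or Aspm, 0 of 109, which allows a share of up to 2.75% of nuclei with such a UMI. The part of these nuclei in the differences given above was not tested beyond leaving out the 4 outside the cluster.

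Tmem127, the targeted gene, had 1 and 2 UMIs in the mesothelial nuclei of KO replicates 1 and 2, 1, 0 and 5 in WT replicates 1 to 3 and 12 in the unassigned library. In the other nuclei it was at 45.9 and 45.1 CPM (KO replicates 1 and 2) and 38.0, 38.1 and 36.0 (WT replicates 1 to 3). Without the position of the deletion, a 3' tag count does not check the labels.

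Whether the knockout changed the number of mesothelial nuclei was asked first. They made up 0.0930% of nuclei in KO replicate 1 (exact 95% binomial interval 0.0192 to 0.272) and 0.892% in KO replicate 2 (0.578 to 1.31). The WT shares were 0.0894% (0.0244 to 0.229), 0.304% (0.146 to 0.559) and 0.453% (0.259 to 0.734). The unassigned library had 1.37% (1.02 to 1.80), above every grouped library. KO replicate 1 lay beside the lowest WT library and KO replicate 2 above the highest, and the intervals of the 2 KO libraries did not overlap. The means were 0.493% ± 0.565 (SD, n = 2) and 0.282% ± 0.183 (SD, n = 3), with p = 0.9 in an exact permutation test on logit shares (two-sided), in which 10 splits allow no p below 0.1.

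Since detection depended on depth, shares were also taken with every nucleus thinned to 1000 UMIs, leaving out 59 and 966 nuclei in KO, 85, 696 and 116 in WT, and 96 for the unassigned library. They were 0.0316% and 0.926% in KO and 0.0683%, 0.0772% and 0.380% in WT, with 0.857% in the unassigned library. The means were 0.479% ± 0.632 (SD, n = 2) and 0.175% ± 0.178 (SD, n = 3), p = 0.7 in the same exact permutation test. KO replicate 2 decides the sign: after thinning, KO minus WT was -0.144 percentage points without it and 0.303 with it. Within the libraries of Cell Ranger 4.0.0, KO replicate 1 was at 0.0316% and WT replicate 1 at 0.0683%; within 3.1.0, KO replicate 2 was above WT replicates 2 and 3. How much surface tissue was kept on a gland at dissection is not given in the labels, and fewer cells and fewer captured nuclei cannot be told apart.

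**Figure D4:**
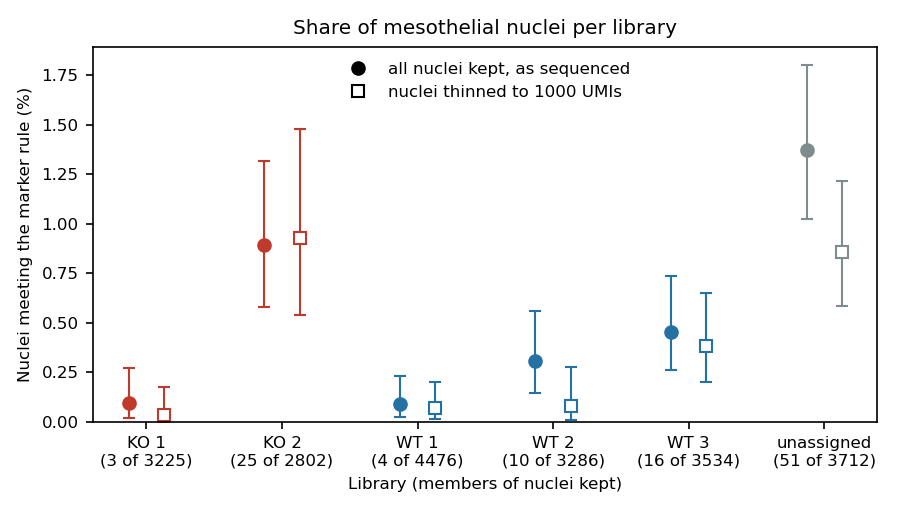
Share of nuclei meeting the rule (vertical axis, percent) in each library, as sequenced (filled circles) and after thinning to 1000 UMIs (open squares), with exact 95% binomial intervals that cover counting error only. KO 2 and the unassigned library stand above the WT libraries, and KO 1 stands beside WT 1 at the bottom.

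Genes were then compared between KO and WT within the mesothelial nuclei, where at least 10 nuclei were present. That left KO replicate 2 against WT replicates 2 and 3, all processed with Cell Ranger 3.1.0, with 1 residual degree of freedom. Because 1 KO library was tested, a difference between genotypes and a difference between that library and the others cannot be told apart. In edgeR (quasi-likelihood test, adjusted by Benjamini and Hochberg), 20 of 1402 genes passed 0.05 (1.43%), 6 higher and 14 lower in KO replicate 2. The balance of directions turned with the nuclei taken: members inside the mesothelial cluster gave 8 higher and 3 lower, and all nuclei of that cluster 15 higher and 3 lower. At an unadjusted p under 0.05 there were 80 genes (5.71%). Over all 5 grouped libraries, 0 of 532 testable genes passed, 13 at an unadjusted p under 0.05, and DESeq2 on the same 3 libraries passed 0.

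The 6 genes higher in KO replicate 2 than in WT replicates 2 and 3 were Csmd1, Vegfc, Ptprz1, Ltbp2, Gm12153 and Gm29266. Csmd1, a membrane protein with complement-control domains, had 34 UMIs in 8 nuclei of KO replicate 2, 0 in WT replicate 2 and 1 in WT replicate 3. It was at 0 in KO replicate 1 and WT replicate 1, and the unassigned library had 5 UMIs in 5 nuclei. Its log2 difference was 5.73 ± 1.22 (SE; edgeR adjusted p = 0.00135). Vegfc, the growth factor of lymphatic vessels, had 45 UMIs in 7 nuclei of KO replicate 2, of which 16 were in 1 nucleus. The tested WT libraries had 2 and 0, but WT replicate 1 had 7 UMIs in 3 of its 4 nuclei and the unassigned library 50 in 10 nuclei. The log2 difference was 4.87 ± 1.10 (SE; edgeR adjusted p = 0.00264). Ptprz1, a receptor tyrosine phosphatase, had 26 UMIs in 10 nuclei, against 0 and 1 in WT, with 40 UMIs in the unassigned library, 23 of them in 1 nucleus. Its log2 difference was 5.33 ± 1.21 (SE; edgeR adjusted p = 0.00264).

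Ltbp2, a matrix protein related to the latent TGF-beta binding proteins, had 22 UMIs in 8 nuclei of KO replicate 2 and none in any other grouped library, while the unassigned library had 5 in 1 nucleus. Against 0 UMIs its fitted difference is no estimate of size (edgeR adjusted p = 0.0120). The unnamed genes Gm12153 and Gm29266 had 26 UMIs in 8 nuclei and 23 in 9, against 2 and 0 and against 0 and 2 in WT replicates 2 and 3. Each of the 6 was spread over 7 to 10 of the 25 nuclei. All 6 stayed higher in KO replicate 2 with only the members inside the mesothelial cluster, and with all 68 nuclei of that cluster in the 3 libraries. Both settings reuse the same KO library, 24 of whose 25 mesothelial nuclei lie in the cluster, and are no independent check. None of the 6 could be tested over all 5 libraries.

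The 14 genes lower in KO replicate 2 included Alcam, Fam155a, Tafa1, Syt1, Osbpl6, Rab3c, Mgat4c, Mdga2, Grip1, Cnksr2, Slc24a2, Nrg3 and Lgr5. Several are known from neurons: Syt1 encodes the calcium sensor of synaptic vesicles and Rab3c a small GTPase of secretory vesicles. In 12 of the 14, over 50% of the UMIs of WT replicate 3 came from its 17198-UMI nucleus, with a median of 98.7% and a range of 29.5% to 100% over the 14. Syt1 had 59 UMIs in that nucleus and none in the other nuclei of its library. In WT replicate 2, Fam155a, Tafa1, Osbpl6, Rab3c, Mgat4c, Mdga2, Slc24a2 and Lgr5 had 0 UMIs. For these genes the WT level in the test rested on WT replicate 3 alone. KO replicate 2 had 2 UMIs of Osbpl6, 1 of Mgat4c and 2 of Lgr5, so these were not lower there than in WT replicate 2. With only the members inside the mesothelial cluster, 11 of 1270 genes passed, and of the 14 only Grip1 could still be tested. Grip1, a scaffold that binds glutamate receptors, was singled out after its values were seen. It had 1 UMI in KO replicate 2, 13 in 5 nuclei of WT replicate 2 and 37 in 3 nuclei of WT replicate 3. Of the 37, 17 were in 1 nucleus and 11 in the large nucleus. WT replicate 1 had 0, KO replicate 1 had 2 in 1 nucleus and the unassigned library 77 in 20 nuclei. The log2 difference of Grip1 was -4.83 within the cluster, again with 1 KO library.

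**Figure D5:**
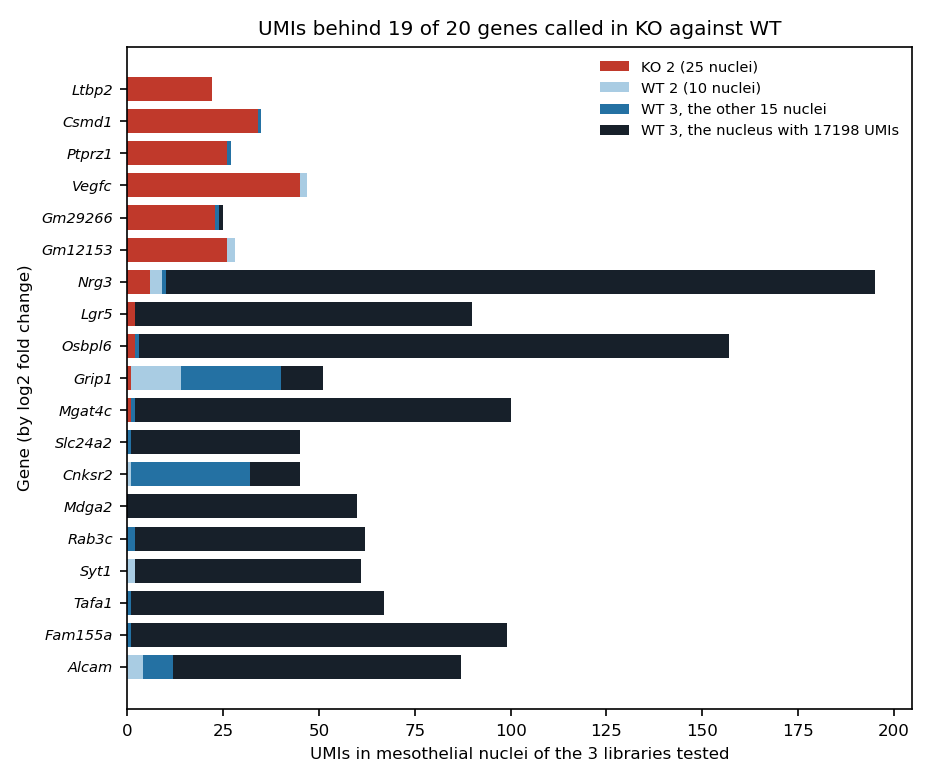
UMIs in mesothelial nuclei of KO replicate 2 and WT replicates 2 and 3 (bar length) for 19 of the 20 genes that passed in KO against WT, split by library, with the 17198-UMI nucleus of WT replicate 3 in black. Of the UMIs of these 3 libraries, those of the 6 upper bars are almost all KO 2, and in 11 of the 13 lower bars most of the WT 3 length is the black nucleus.

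None of the mesothelial genes passed in this comparison. Of the 7 rule genes 5 could be tested, with a median log2 difference of -0.30, and of the 23 genes outside the rule 11, with -0.17; the median over all tested genes was -0.05. Wt1 differed by 0.14 ± 0.82 on the log2 scale and Muc16 by -0.30 ± 0.78 (SE; edgeR adjusted p = 1.00 for both). Pkhd1l1 differed by 0.00 ± 0.78 and Upk1b by 1.34 ± 0.83 (SE), Lrp2 by 2.77 ± 0.97 (SE; edgeR adjusted p = 0.175). Errors of this size leave room for changes of several fold. The KO effect in mesothelial nuclei was then set against that in all other nuclei over the 5 grouped libraries. Of 12580 genes, 0 passed (0%, edgeR), and 169 had an unadjusted p under 0.05, a share below that cut. Among the 169 the effect was higher in mesothelial nuclei for Csmd1, Cyp11a1, Cyp21a1 and Cyp11b1, and lower for Wt1 and Upk1b. The Csmd1 UMIs in KO were all in KO replicate 2. All members entered, including the nucleus with 67.6% of the mesothelial RNA of KO replicate 1. With only the members inside the mesothelial cluster, 0 of 12494 genes passed and 67 had an unadjusted p under 0.05.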

How the data were processed

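The deposited files hold UMI counts per gene and barcode, made by the authors with Cell Ranger against mm10, per the submitters' processing notes; the versions are per the file headers. Files list 32285 or 31053 genes, and the 30406 in both were used. Barcodes with under 300 genes or at least 5% mitochondrial UMIs (48) and 641 doublets, the highest scores at 0.8% per 1000 barcodes (scrublet in scanpy 1.11.5), were removed. Nuclei were clustered (2000 variable genes, 30 components, 20 neighbours, Leiden resolution 0.8). Levels are summed counts per 1000000 (CPM), with 1 CPM added before logs. Counts summed per library were tested with edgeR 4.0.16 (quasi-likelihood, TMM, filterByExpr); Cell Ranger version was a term only where libraries of both versions entered, and library was a block in the test of members against other nuclei. DESeq2 1.42.0 was an alternative. The SE given with an edgeR difference is its absolute size over the square root of the test's F statistic, not a separately fitted error. The members, lists and rules for named genes were chosen with earlier results of these data known; named were the rule genes and Tmem127, the 20 leading genes, called genes and list members. On simulated data of these library sizes 0 of 200 changed genes were called, with median log2 estimates of 1.80 for 2 and 3.73 for 4; with 20 times the counts 98 of 100 and 100 of 100 were called. Labels do not say that replicates were processed separately, so p-values measure the spread between these libraries. Gene positions are from GENCODE M21 (mm10). Some list members and 1 called gene are not reported here.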

Additional observations from a re-analysis of the deposited data

Results flagged for a closer look

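The library with contradictory labels entered comparisons of KO with WT only as an alternative, counted as one or the other, and its share of nuclei meeting the rule was 1.37%, against 0.0894% to 0.453% in the WT libraries and 0.0930% and 0.892% in KO. After thinning to 1000 UMIs it was 0.857%, above every WT library and below KO replicate 2 (0.926%). Its value stood out because it is a signal above the level of the control samples in data that the reported comparison of KO with WT left out. Its genotype is not resolved here.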

How the results depend on the processing

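No paired analysis was possible because the labels carry no replicate numbers; those used here only name libraries in accession order. The difference in shares (KO minus WT) was 0.303 percentage points after thinning and ranged from -0.144 (without KO replicate 2) to 0.751 over leaving out each library; unthinned it was 0.210 and ranged from -0.189 to 0.610. It also reversed, to -0.0625 unthinned, with the unassigned library counted as WT. The count of 20 genes called in KO against WT became 0 without a filter on low counts (128 at an unadjusted p under 0.05), 0 with DESeq2 (14 unadjusted), 0 over all 5 grouped libraries (an alternative chosen after seeing the data), 0 and 1 where the unassigned library joined KO or WT, and 11 with members of the mesothelial cluster alone (8 higher, 3 lower); the cause was not tested. Of the 20 genes, 0 reversed in direction under any alternative run, but few had a value in some of them. These were 2 genes over all 5 grouped libraries, 5 where the unassigned library joined KO and 7 in each setting limited to the mesothelial cluster. Leaving out KO replicate 1, WT replicate 1 or the batch term repeats the same test of 3 libraries. The 0 genes whose effect differed from other nuclei became 1 without the batch term, 14 where the unassigned library joined KO, and 1 with all nuclei of the cluster. Requiring 3 rule genes, or leaving out KO replicate 2, WT replicate 2 or WT replicate 3, left too few libraries for the gene test. Depth limits all results: 14 members had under 1000 UMIs, and the smallest library summed to 11070.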
